A study of Mus musculus with 24 samples.

Results

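The voltage-gated sodium and calcium channel genes were followed in cortical neurons with and without IL-1b. They were all genes whose platform symbol is Scn followed by a digit or begins with Cacn, each read on the probe set with the highest mean over the 24 arrays. The rule found 35 genes on 85 probe sets, of 18193 genes with a single-symbol probe set. There were 11 sodium channel genes and 24 calcium channel genes. Of the 35, 32 were among the 14217 genes bright enough to test, which had at least 3 arrays above the 40th percentile of their array. The other 3, Cacna1s, Scn10a and Scn4b, had 0, 0 and 2 such arrays. Cacnb3 was not analysed here, because the probe table used here pairs no single-symbol probe set with it. The rule goes by symbol, so it also takes in Scn7a, a sodium-level sensor that is not opened by voltage, and gamma subunits that mostly accompany AMPA receptors.

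Per the labels, all arrays came from embryonic cortical neurons of Il1rap-/- mice grown in serum-free medium. Il1rap is the gene of AcP, a chain that the IL-1 receptor needs to signal, and of AcPb, its neuronal isoform, so these neurons lack both. They were made to express CD25, AcP, AcPb or AcP together with AcPb, and cultures of each arm were stimulated for 4 h, either with 10 ng/ml IL-1b or with a control, with 3 arrays in each of the 8 groups. CD25 is a chain of the IL-2 receptor and served as the arm with no accessory chain. How the receptors were introduced and the age of the embryos are not given in the sources used here, and no group has neurons of wild-type mice. The comparisons address whether either chain lets neurons respond to IL-1b. Intensities are array units, and changes are log2 units of the intensity plus 16, given with the standard error of the limma fit unless an SD is named.

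Voltage-gated sodium channels open on depolarisation and carry the rising phase of the action potential. Each has a large alpha subunit that forms the pore and smaller beta subunits that set its gating and its place in the membrane. Voltage-gated calcium channels have an alpha1 pore subunit, which defines the L, P/Q, N, R or T type of current, an intracellular beta subunit and an extracellular alpha2delta subunit that help the pore reach the surface. In neurons they couple depolarisation to transmitter release and to gene transcription.

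Promoter letters are shown for Cacng5 and Scn2b, 2 of the 3 channel genes called between arms both without and with IL-1b. The third, Scn3b, has no entry in the promoter table. RefSeq promoters on GRCm38.p6 matched 27 of the 35 genes, with 37 entries, and the 250 bases before each start were searched on both strands. The motif GGGCGG, the core of the GC box, stands in capitals on either strand. Cacng5 is on the minus strand, and the window of 1 of its 2 promoter entries is chr11:107915056-107915305.

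Cacng5: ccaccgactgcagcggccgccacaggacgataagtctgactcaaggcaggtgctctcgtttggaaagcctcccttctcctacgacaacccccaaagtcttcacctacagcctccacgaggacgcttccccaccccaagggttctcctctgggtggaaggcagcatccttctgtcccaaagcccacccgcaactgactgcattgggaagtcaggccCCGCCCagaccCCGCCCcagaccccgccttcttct

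Scn2b is on the plus strand, and its window is chr9:45117626-45117875.

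Scn2b: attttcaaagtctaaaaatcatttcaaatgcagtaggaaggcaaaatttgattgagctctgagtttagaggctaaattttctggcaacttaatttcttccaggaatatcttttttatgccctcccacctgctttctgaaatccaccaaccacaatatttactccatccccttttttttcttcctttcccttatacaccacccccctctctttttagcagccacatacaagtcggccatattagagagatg

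This Cacng5 window holds 2 GGGCGG motifs, both written on the opposite strand, and 62% of its bases are G or C. The window of the other Cacng5 entry, chr11:107911363-107911612, holds 0, and 56.8% of its bases are G or C. The Scn2b window holds none, and 38.4% of its bases are G or C. GGGCGG stood in 14 of the 37 channel gene windows, 37.8%, and in 32.7% of all 32851 windows of the same length. The TATA motif TATAAA stood in 2 channel gene windows and in 12.4% of all windows, and neither printed window holds it. The NF-kB consensus stood in 2 channel gene windows, 5.41%, and in 3.9% of all windows. These are matches of letters only.

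The deposited arrays had medians between 55.06 and 66.45, and on each array 16.4% to 18.22% of values were negative. The mean correlation of replicate arrays in a group ran from 0.9758 to 0.9865. Replicates spread most among AcP controls, where the median SD over genes was 0.165 log2 units against 0.09 to 0.116 in the other groups. A code at the end of the array names was m21B on all arrays of the CD25, AcP and AcPb arms, while the AcP+AcPb arm had 2 control arrays with m22B and 1 control and 3 IL-1b arrays with m23B. The labels do not say what the code stands for. In comparisons of AcP+AcPb with another arm, code and arm cannot be told apart. Within the AcP+AcPb arm, code and IL-1b largely coincide. Neuron markers were bright in every group, with a sum over 11 genes between 28330 and 34870 units. Of 8 microglial genes, 2 were bright enough to test, Csf1r, with group means of 277.4 to 636.1, and C1qb, with 61.4 to 82.4, while Aif1, Cx3cr1 and C1qa lay near or below 0 in every group mean, from -127.7 to 3.66.

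No channel gene was called after IL-1b in any arm. In AcP neurons 0 of 32 passed an adjusted p under 0.05, the limma threshold for a call, where 0.542% of all genes did. In AcP+AcPb neurons the count was 0 of 32, with 0.457% of all genes called, in AcPb neurons 0 of 32, with 0.00703%, and in CD25 neurons 0 of 32, with 0%. With so few calls over all genes, counts of 0 are near the background. At an unadjusted p under 0.05 the counts of channel genes were 0 in CD25, 1 in AcP, 5 in AcPb and 3 in AcP+AcPb neurons. The shares over all genes were 6.04%, 8.79%, 11.0% and 11.1%. Those in AcP were Cacna1d, in AcPb Cacna1b, Cacna1c, Cacna1e, Cacna1g and Cacng4, and in AcP+AcPb Cacna1c, Cacna2d4 and Scn8a. Of these 9 pairs of a gene and an arm, 8 had a lower mean after IL-1b, and Cacna2d4 had a higher one.

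The changes with IL-1b were small. Their median over the 32 genes was -0.004 in CD25, -0.058 in AcP, -0.091 in AcPb and -0.057 in AcP+AcPb neurons, where the medians over all genes were 0.008, 0.003, -0.004 and 0.005. With array medians centred, the channel gene medians were -0.003, -0.004, -0.137 and -0.053, and those of all genes 0.009, 0.057, -0.05 and 0.009. The change was negative in 17, 22, 23 and 22 of the 32 genes, beside 47.4%, 48.9%, 51.2% and 48.4% of all genes. The median half-width of a 95% interval was 0.23 log2 units. The interval lay within a 2-fold change either way for 31 channel genes in CD25 neurons and for 30 in each of the other arms. The exceptions were Cacng6 in every arm, Cacng1 in AcP and AcPb, and Cacna2d4 in AcP+AcPb neurons, all dim genes. In bulk samples such as these, fewer cells of a type and less RNA per cell cannot be told apart.

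**Figure D1:**
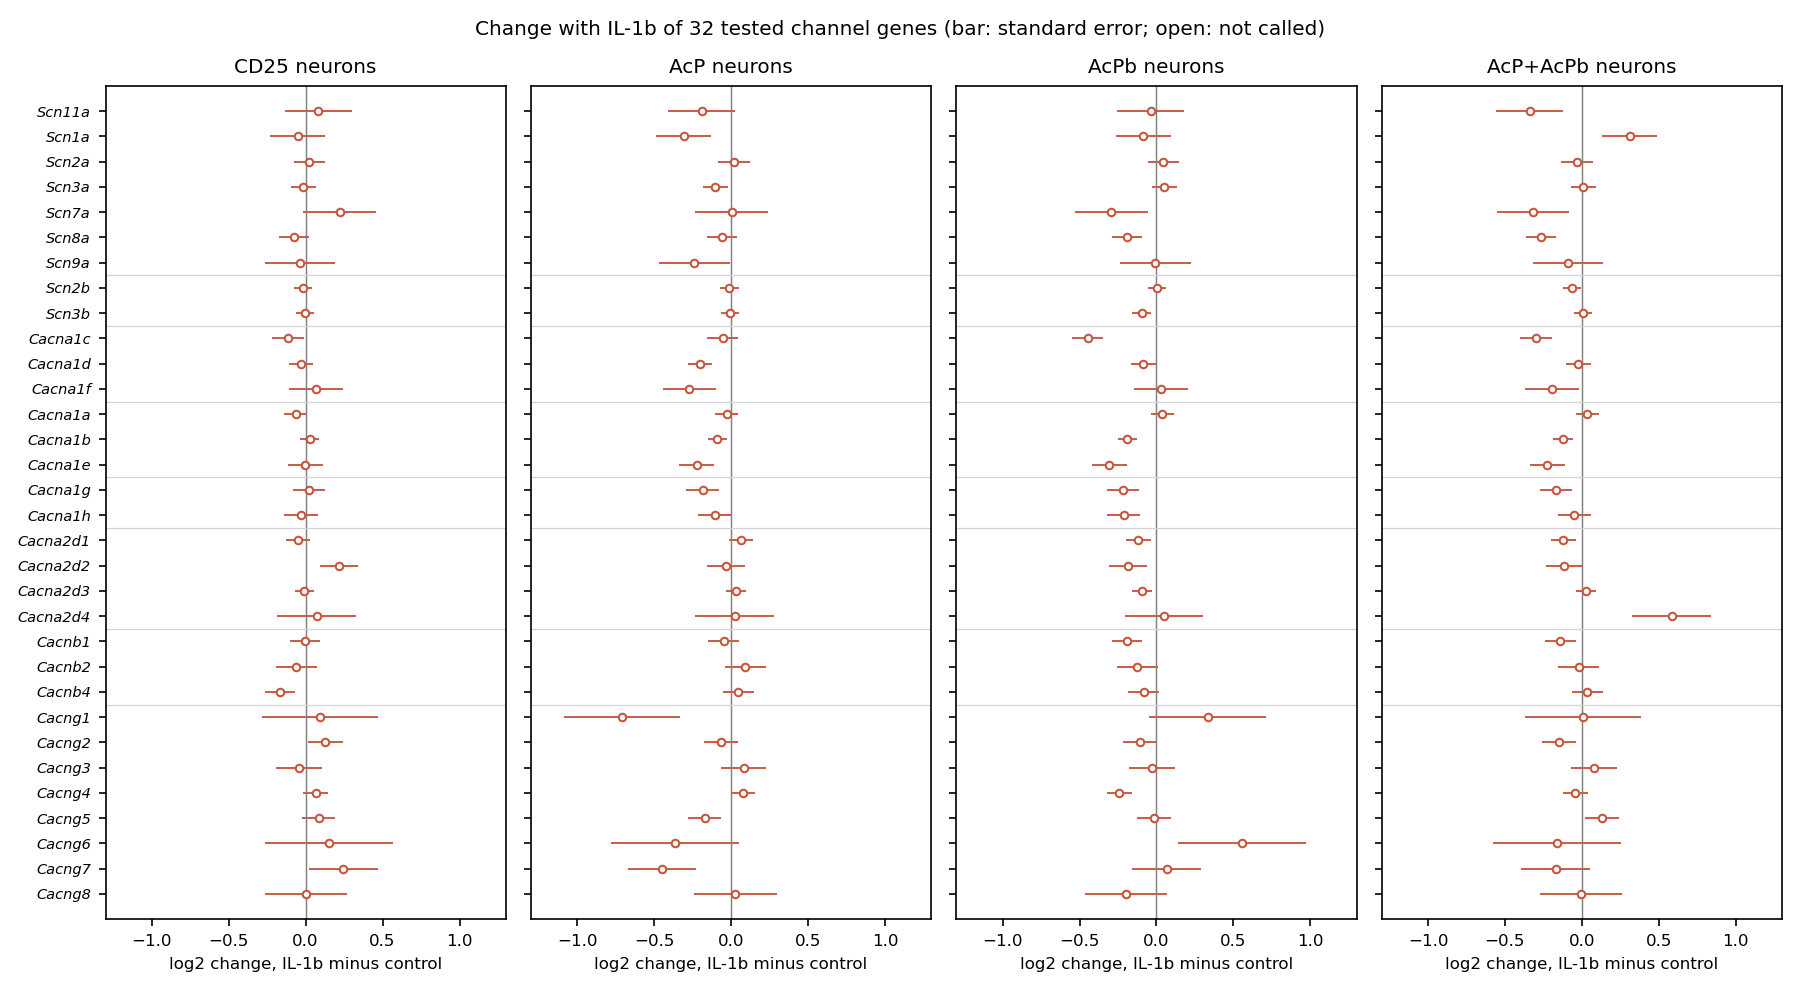
The log2 change with IL-1b of each of the 32 tested channel genes, in a panel for each receptor arm, with genes in rows grouped by subunit family. Points are limma estimates from 3 IL-1b and 3 control arrays, bars are standard errors, and every point is open because 0 genes were called; the wide bars belong to dim genes such as Cacng1 and Cacng6.

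The arms differed before IL-1b was added. Against CD25 controls, 7 of 32 channel genes were called in AcP controls, 21.9%, where 15.5% of all genes were. Of the 7, 6 were higher, 18.8% against 6.86% of all genes, namely Cacna1b, Cacna1g, Cacna2d2, Cacnb1, Scn2b and Scn3b. Cacng5 was lower, 3.12% against 8.68% of all genes. In AcPb controls 3 were called, 9.38% against 7.62% of all genes. Cacna2d2 was higher, where 2.36% of all genes were, and Cacnb4 and Cacng5 were lower, where 5.25% were. In AcP+AcPb controls 6 were called, 18.8% against 18.7% of all genes. Cacna1b, Cacna1f, Cacna2d2 and Scn2b were higher, where 6.81% of all genes were, and Cacna2d4 and Cacng5 were lower, where 11.9% were. The totals lie near those of all genes. The share called higher stood above that of all genes in AcP and, at 12.5%, in AcP+AcPb controls, a gap that was not tested and rests on 6 and 4 genes. The 3 comparisons share their CD25 control arrays. Without CD25 control 2 the counts were 4, 1 and 3. Without AcP control 1 the AcP count was 3, without CD25 control 3 the AcPb count was 1. Without AcP+AcPb control 1 the AcP+AcPb count was 3. Counts over all genes fell too, from 2209, 1083 and 2664 to 1652, 685 and 1987 without CD25 control 2. For the same arms they were 1650 without AcP control 1, 667 without CD25 control 3 and 2201 without AcP+AcPb control 1. With only the 6 arrays compared in the fit the AcP count was 0, where 548 of all genes were called. With array medians centred the AcP and AcP+AcPb counts were 3 each, where 1551 and 2226 of all genes were called. With the mean of a gene's probe sets the AcP and AcPb counts were 2 and 1, where 1698 and 772 were. With that mean 5 channel genes were called in AcP+AcPb controls, but only Cacna1f of the 6 named above was among them. That mean takes in probe sets too dim to test, such as further ones of Cacna2d2 and Cacna2d4, while Cacna1f has 1 probe set.

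The median difference from CD25 over the 32 genes was 0.141 in AcP, 0.055 in AcPb and 0.145 in AcP+AcPb controls, where all genes had medians of 0.013, 0.001 and -0.018. IL-1b arrays form a separate set of samples from the same arms. There 3 of 32 channel genes were called in AcP, Cacng5, Scn2b and Scn3b, with 11.5% of all genes. In AcPb 1 was called, Cacng5, with 3.62% of all genes, and in AcP+AcPb 2, Cacng5 and Scn2b, with 12.8%. All 6 of these calls were also made in the controls. They made up 42.9% of the 7 AcP, 33.3% of the 3 AcPb and 33.3% of the 6 AcP+AcPb control calls. Over all genes, 1009 of 2209 AcP, 324 of 1083 AcPb and 1058 of 2664 AcP+AcPb control calls were also made in IL-1b arrays. Calls over all genes in the IL-1b arrays were 1632, 514 and 1821 in that order. All 16 differences called in controls had the same sign in the IL-1b arrays, and the matching count over all genes was not taken. Between AcP+AcPb and AcP controls 0 channel genes were called, where 0.239% of all genes were. At an unadjusted p under 0.05, 4 channel genes differed there, Cacna2d4, Cacng5, Scn1a and Scn3b, all lower in AcP+AcPb, where 11.5% of all genes passed.

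**Figure D2:**
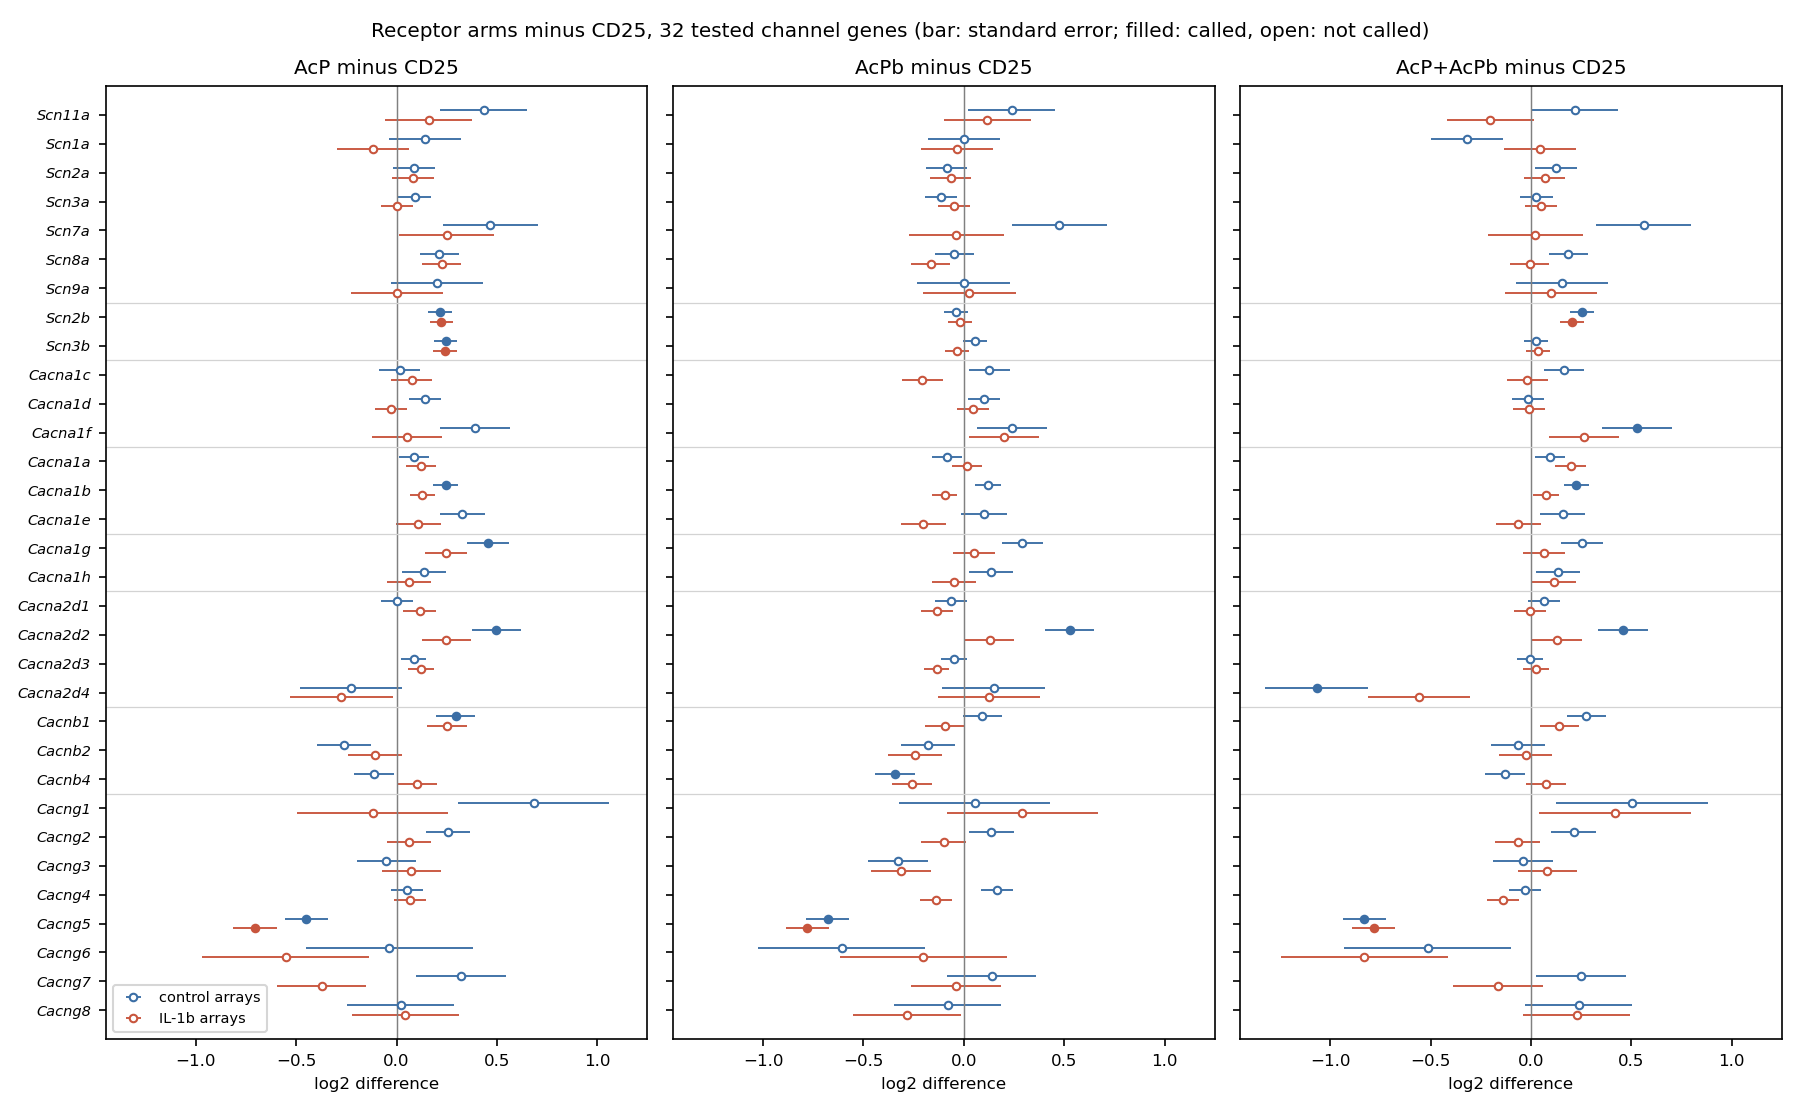
The log2 difference of each receptor arm from the CD25 arm for the 32 tested channel genes, in control arrays (blue) and IL-1b arrays (red), with limma standard errors as bars and filled points for called genes. Cacng5 is called on the lower side in all 3 panels and both colours, and Scn2b on the higher side in both colours of the AcP and AcP+AcPb panels.

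Markers of other cell types moved between the arms along with these genes. Gfap, an astrocyte filament, had a mean of 1936 in CD25 controls, 482 in AcP, 568 in AcPb and 1360.2 in AcP+AcPb controls, and was called lower than in CD25 controls in AcP and AcPb (-1.98 and -1.73). Nes, a filament of neural progenitors, was called lower than in CD25 controls in all 3 arms, at -1.05, -0.99 and -0.74. Acta2, a smooth muscle actin of mural cells, was also called lower in all 3, at -1.42, -1.04 and -1.06. Other markers in the same lists were higher. Hes5, a progenitor transcription factor, was called higher in all 3 arms, at 1.205, 0.805 and 0.997, and Slc1a2, an astrocyte glutamate transporter, in AcP and AcP+AcPb, at 0.67 and 0.55. Of 6 tested oligodendrocyte-lineage markers, 1 was called in each arm: Olig1, a transcription factor of the lineage, was higher in AcP and AcPb (0.56 and 0.45), and Mbp, a myelin protein, was lower in AcP+AcPb (-1.70). The summed level of 7 progenitor and dividing-cell markers ran from 4184 to 4518 in CD25 controls, 3030 to 3333 in AcP, 3342 to 3535 in AcPb and 2740 to 3048 in AcP+AcPb controls. The sum of 8 endothelial, mural and fibroblast markers ran from 1747 to 2403, 929.1 to 1033, 1058 to 1309 and 963.9 to 1347 in the same order. The sum of 7 astrocyte markers ran from 12940 to 17410, 13350 to 15090, 14540 to 16330 and 15120 to 16940. The sum of 7 oligodendrocyte-lineage markers ran from 4021 to 5708, 5594 to 6084, 5469 to 6284 and 3752 to 4933. Of the 7 astrocyte markers, 5, 2 and 3 were called in AcP, AcPb and AcP+AcPb controls, with 2, 0 and 2 of them higher. Of the 7 progenitor markers 4, 3 and 5 were called, with 1 higher in each arm, and of the 5 tested endothelial, mural and fibroblast markers 3, 2 and 3, all lower. The shares of all genes called were 15.5%, 7.62% and 18.7%. The sum of 11 neuron markers ran from 29290 to 31300 in CD25 and 31000 to 34870 in AcP controls. It ran from 30140 to 31570 in AcPb and 30700 to 32290 in AcP+AcPb controls. Of the 11, 3, 1 and 0 were called in AcP, AcPb and AcP+AcPb controls. Their means went both ways. In AcP controls Nefl and Gad2 lay below CD25 controls and the rest above. In AcPb controls Map2, Nefl, Nefm, Slc17a7, Gad1 and Gad2 lay below, and in AcP+AcPb controls Tubb3, Map2, Nefl, Nefm and Gad2. Microglial sums over 8 genes ran from 318.1 to 1012 and muscle sums over 6 genes from 224.1 to 335.4 in the controls. The part of these markers in the differences of channel genes was not tested.

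Of the 8 sodium channel alpha genes, 7 were tested and 0 were called in any comparison. Scn2a encodes the alpha subunit that dominates the young axon initial segment. Control arrays of Scn2a read 1909, 2077 and 1889 in CD25 neurons, 2192, 1692 and 2423 in AcP, 1952, 1764 and 1816 in AcPb and 2223, 1967 and 2223 in AcP+AcPb neurons. With IL-1b, Scn2a read 2042, 1790.1 and 2159.5 in CD25 neurons, 2177, 1911 and 2251 in AcP, 1833, 1898 and 1974 in AcPb and 2087, 2091 and 2085 in AcP+AcPb neurons. In each arm the range of the IL-1b arrays overlapped that of the controls, and in controls the range of each receptor arm overlapped that of CD25. Its change with IL-1b was 0.03 ± 0.10 in CD25, 0.02 in AcP, 0.04 in AcPb and -0.03 in AcP+AcPb neurons, with adjusted p from 0.92 to 0.98. Scn3a, an alpha subunit prominent in the embryonic brain, was not called either. In control arrays, Scn3a stood at 652, 636 and 607 in CD25 neurons, 683, 587 and 759 in AcP, 585, 569 and 593 in AcPb and 686, 582 and 666 in AcP+AcPb neurons. In IL-1b arrays, Scn3a stood at 639.6, 577 and 660.1 in CD25 neurons, 619, 643 and 615 in AcP, 557, 609 and 649 in AcPb and 654, 647 and 640.5 in AcP+AcPb neurons. The AcPb controls lay below the CD25 controls with no overlap, but the difference of -0.11 ± 0.08 was not called (adjusted p = 0.45). Its changes with IL-1b lay between -0.10 and 0.05.

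Scn1a encodes the alpha subunit most used by fast-spiking inhibitory neurons. Without IL-1b, Scn1a gave 352, 339 and 397 in CD25 neurons, 450.3, 352 and 404 in AcP, 348, 355 and 383 in AcPb and 224, 249 and 421 in AcP+AcPb neurons. After IL-1b, Scn1a gave 336, 321 and 393 in CD25 neurons, 359, 386 and 235 in AcP, 348, 338 and 334 in AcPb and 353, 377 and 349.7 in AcP+AcPb neurons. Single arrays stood low, 2 AcP+AcPb controls and 1 AcP IL-1b array. The change with IL-1b was -0.31 ± 0.18 in AcP and 0.31 ± 0.18 in AcP+AcPb neurons, and neither was called (adjusted p = 0.67 and 0.54). Scn8a encodes the alpha subunit of mature axon initial segments and nodes. Control arrays of Scn8a read 1117, 1080.4 and 1152 in CD25 neurons, 1496, 1081 and 1342 in AcP, 1034, 1127 and 1079 in AcPb and 1369, 1204 and 1246 in AcP+AcPb neurons. With IL-1b, Scn8a read 968, 997 and 1229 in CD25 neurons, 1234, 1229.6 and 1258 in AcP, 971, 914 and 945 in AcPb and 1073, 1106 and 984 in AcP+AcPb neurons. The IL-1b arrays lay below the controls with no overlap in AcPb and in AcP+AcPb neurons. The changes of -0.19 ± 0.10 and -0.27 ± 0.10 were not called (adjusted p = 0.48 and 0.29). In AcP+AcPb neurons the other 3 tested Scn8a probe sets also had lower means after IL-1b, by -0.511, -0.164 and -0.214, none called.

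The other alpha genes were dim. Scn7a, the sodium sensor, was above the 40th percentile in 20 arrays. In control arrays, Scn7a stood at 32.2, 29.9 and 28.2 in CD25 neurons, 43.8, 71.4 and 33.4 in AcP, 64.8, 35.1 and 47.7 in AcPb and 62.0, 72.3 and 29.6 in AcP+AcPb neurons. In IL-1b arrays, Scn7a stood at 33.7, 47.8 and 33.0 in CD25 neurons, 53.2, 56.3 and 36.1 in AcP, 27.0, 47.4 and 36.6 in AcPb and 41.2, 39.2 and 35.4 in AcP+AcPb neurons. The CD25 controls were the tightest and lowest group, and the AcP and AcPb controls lay above them with no overlap. None of these differences was called, at 0.47 ± 0.24 in AcP, 0.48 ± 0.24 in AcPb and 0.56 ± 0.24 in AcP+AcPb controls. With IL-1b, the AcPb difference from CD25 was -0.04. Scn9a and Scn11a, alpha subunits known from sensory neurons, stood above the 40th percentile in 3 and 6 arrays, with intensities of 13.9 to 37.4 and 12.7 to 39.8. Scn10a, likewise of sensory neurons, lay between -9.65 and 17.9 and was not tested.

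Both tested sodium channel beta genes were called higher in AcP neurons. Scn2b encodes a beta subunit that is bound to the alpha subunit by a disulfide bond. Without IL-1b, Scn2b gave 639, 644 and 654 in CD25 neurons, 694, 742 and 827 in AcP, 597, 641 and 648 in AcPb and 777, 771 and 768 in AcP+AcPb neurons. After IL-1b, Scn2b gave 599, 627 and 689 in CD25 neurons, 758, 730.2 and 752 in AcP, 621, 618 and 649 in AcPb and 712, 738 and 762 in AcP+AcPb neurons. In controls, every AcP and AcP+AcPb array lay above every CD25 array, while AcPb arrays overlapped CD25 arrays. The same held in the IL-1b arrays. The difference from CD25 was 0.22 ± 0.06 in AcP (adjusted p = 0.019) and 0.25 ± 0.06 in AcP+AcPb controls (adjusted p = 0.0063), and -0.04 ± 0.06 in AcPb controls. In IL-1b arrays it was 0.22 ± 0.06, 0.21 ± 0.06 and -0.02 ± 0.06 in that order, with adjusted p = 0.019 and 0.029 for the first 2. Leaving out CD25 control 1 or 2 or AcP control 3 ended the call in AcP controls, as did a fit of only the arrays compared. With array medians centred, and with the mean of its probe sets, the calls in AcP and in AcP+AcPb controls were lost (adjusted p up to 0.42 and 0.37 over all alternatives). The response of Scn2b to IL-1b was largest in AcP+AcPb neurons, at -0.07 ± 0.06 (adjusted p = 0.73), not called.

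Scn3b encodes a beta subunit that binds without such a bond. Control arrays of Scn3b read 1747, 1839 and 1793 in CD25 neurons, 2299.6, 2063 and 2025 in AcP, 1735, 2007 and 1865 in AcPb and 1812, 1861 and 1793 in AcP+AcPb neurons. With IL-1b, Scn3b read 1799, 1810.0 and 1754 in CD25 neurons, 2021, 2299 and 2039 in AcP, 1717, 1767 and 1746 in AcPb and 1829, 1846 and 1821 in AcP+AcPb neurons. Every AcP array lay above every CD25 array, both in controls and with IL-1b. The AcP difference from CD25 was 0.24 ± 0.06 in controls (adjusted p = 0.0086) and 0.24 ± 0.06 with IL-1b (adjusted p = 0.012). AcP+AcPb controls differed from CD25 by 0.02 ± 0.06 and from AcP controls by -0.22 ± 0.06 (adjusted p = 0.12), neither called. Leaving out AcP control 1 ended the call in controls. It was also lost with array medians centred, with the mean of probe sets and with only the arrays compared (adjusted p up to 0.4 over all alternatives). Scn4b, the third beta gene, lay between 7.76 and 35.7 and was not tested.

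**Figure D3:**
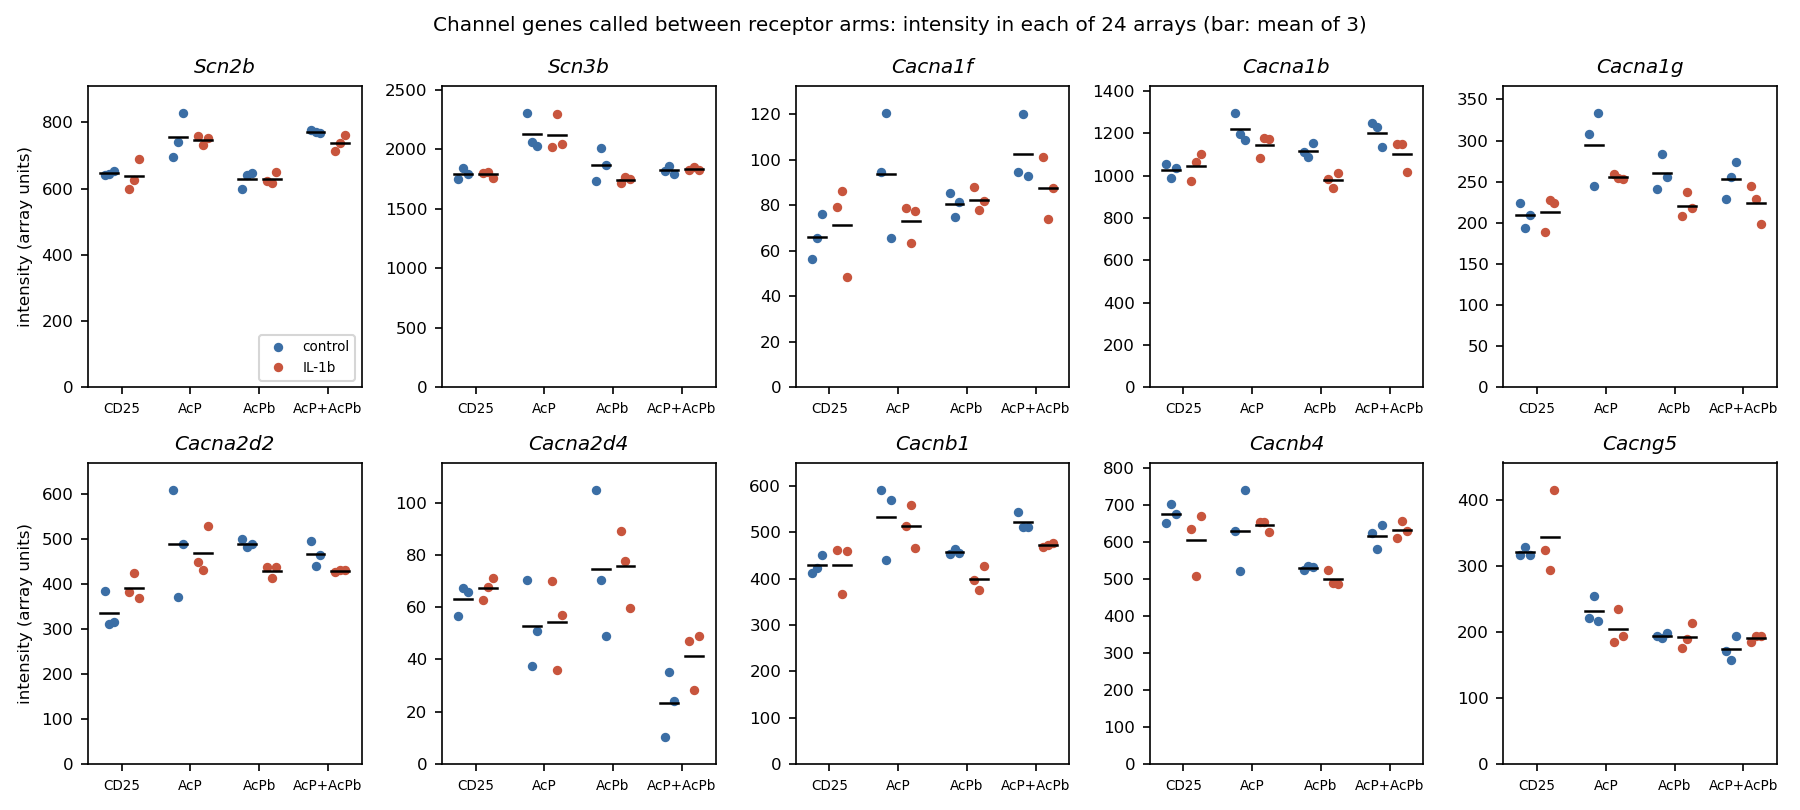
Intensity in array units of the 10 channel genes called between arms, with a point for each array (3 control arrays in blue and 3 IL-1b arrays in red per arm) and a bar at each mean, each axis starting at 0. Cacng5 arrays of the CD25 arm, at 294 to 416, lie above all arrays of the other arms, at 157 to 256.

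Of the 4 L-type alpha1 genes, 1 was called, Cacna1f in AcP+AcPb controls. Cacna1c encodes the main neuronal and cardiac L-type pore. In control arrays, Cacna1c stood at 292, 324 and 280.4 in CD25 neurons, 318, 283 and 306 in AcP, 320.3, 369 and 297 in AcPb and 308, 364 and 338 in AcP+AcPb neurons. In IL-1b arrays, Cacna1c stood at 259, 256 and 312 in CD25 neurons, 284, 316 and 272 in AcP, 233, 211 and 266 in AcPb and 271, 296 and 247 in AcP+AcPb neurons. The IL-1b arrays lay below the controls with no overlap in AcPb and in AcP+AcPb neurons, and overlapped them in CD25 and AcP neurons. The change in AcPb neurons, -0.45 ± 0.10, had the smallest adjusted p of any channel gene after IL-1b, 0.17, and was not called. It was -0.30 ± 0.10 in AcP+AcPb (adjusted p = 0.26), -0.11 in CD25 and -0.05 in AcP neurons. With array weights in the fit, the AcPb change was called at an adjusted p of 0.042, where the range over the other alternatives reached 0.69. The second Cacna1c probe set changed by 0.076 ± 0.229 in AcPb and -0.284 ± 0.229 in AcP+AcPb neurons.

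Cacna1d encodes an L-type pore that opens at lower voltages. Without IL-1b, Cacna1d gave 298, 314 and 317 in CD25 neurons, 375, 334 and 322 in AcP, 324, 346 and 328 in AcPb and 317, 289 and 311 in AcP+AcPb neurons. After IL-1b, Cacna1d gave 266, 314 and 332 in CD25 neurons, 313, 315 and 264 in AcP, 307, 300.2 and 332 in AcPb and 313, 305 and 284 in AcP+AcPb neurons. The AcP arrays with IL-1b lay below the AcP controls with no overlap, at -0.20 ± 0.08 (adjusted p = 0.46), and the other arms overlapped. Cacna1f, an L-type pore best known from retina, was dim. Control arrays of Cacna1f read 56.6, 65.5 and 76.3 in CD25 neurons, 94.8, 120.4 and 65.6 in AcP, 85.5, 74.8 and 81.3 in AcPb and 94.5, 120.1 and 92.8 in AcP+AcPb neurons. With IL-1b, Cacna1f read 79.3, 86.3 and 48.6 in CD25 neurons, 78.9, 63.4 and 77.3 in AcP, 87.9, 77.8 and 82.0 in AcPb and 101, 74.0 and 87.7 in AcP+AcPb neurons. Every AcP+AcPb control lay above every CD25 control, from 66.1 ± 9.90 to 102 ± 15.3 units (SD, n = 3 each), a difference of 0.53 ± 0.17 (adjusted p = 0.042). The call was lost in 8 of 18 alternatives, among them leaving out any 1 of 5 of the 6 arrays compared, and the IL-1b arrays gave 0.27. Cacna1s, the L-type pore of skeletal muscle, lay between -8.66 and 10.9 and was not tested.

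Of the 3 alpha1 genes of presynaptic and R-type channels, Cacna1b was called. Cacna1b encodes the N-type pore, which triggers transmitter release. In control arrays, Cacna1b stood at 1056, 990.5 and 1034 in CD25 neurons, 1294, 1197 and 1169 in AcP, 1112, 1087 and 1154 in AcPb and 1247, 1228 and 1135 in AcP+AcPb neurons. In IL-1b arrays, Cacna1b stood at 974, 1066 and 1102 in CD25 neurons, 1084, 1176 and 1175 in AcP, 985, 939.9 and 1010.5 in AcPb and 1148, 1148 and 1016 in AcP+AcPb neurons. In controls, all arrays of the other arms lay above the CD25 arrays. The difference was 0.24 ± 0.06 in AcP (adjusted p = 0.013), 0.23 ± 0.06 in AcP+AcPb (adjusted p = 0.018) and 0.12 ± 0.06 in AcPb controls (adjusted p = 0.28), the last not called. Leaving out CD25 control 2 ended both calls, AcP control 1 the AcP call, and AcP+AcPb control 1 or 2 the AcP+AcPb call. Both calls were also lost with array medians centred, with the mean of probe sets and with only the arrays compared. With IL-1b each arm overlapped CD25, and the differences were 0.13 in AcP, 0.07 in AcP+AcPb and -0.10 in AcPb, none called, while the AcPb arrays lay below all AcP and AcP+AcPb arrays. With every probe set tested singly, further Cacna1b probe sets were called higher than in CD25 among the IL-1b arrays. These differences between arms were 0.705 ± 0.195 and 0.229 ± 0.062 in AcP (adjusted p = 0.029 and 0.026) and 0.861 ± 0.195 in AcP+AcPb (adjusted p = 0.0081). In AcPb neurons the IL-1b arrays lay below the controls, at -0.19 ± 0.06 (adjusted p = 0.29).

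Cacna1a encodes the P/Q-type pore, the other main trigger of transmitter release. Without IL-1b, Cacna1a gave 389, 395 and 369 in CD25 neurons, 364, 406 and 459.9 in AcP, 339, 375 and 371 in AcPb and 447, 371 and 421 in AcP+AcPb neurons. After IL-1b, Cacna1a gave 361, 355 and 385 in CD25 neurons, 384, 412 and 406 in AcP, 365, 358 and 392 in AcPb and 422, 424 and 421 in AcP+AcPb neurons. Its change with IL-1b reached at most -0.06, and no arm was called. Cacna1e encodes the R-type pore. Control arrays of Cacna1e read 387, 402 and 391 in CD25 neurons, 484, 508 and 502 in AcP, 413, 430.0 and 427 in AcPb and 447, 403 and 473 in AcP+AcPb neurons. With IL-1b, Cacna1e read 333, 378 and 479 in CD25 neurons, 414, 458 and 403 in AcP, 368, 312 and 339 in AcPb and 390.1, 435 and 310.1 in AcP+AcPb neurons. The AcP controls lay above the CD25 controls with no overlap, at 0.33 ± 0.11, not called (adjusted p = 0.057). After IL-1b, arrays lay below the controls with no overlap in AcP and in AcPb neurons, at -0.22 ± 0.11 and -0.31 ± 0.11 (adjusted p = 0.6 and 0.32). Averaged over its 2 probe sets, 1 of them too dim to test, the AcP change was 0.0159.

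Of the 2 T-type alpha1 genes, which open near the resting potential, Cacna1g was called. In control arrays, Cacna1g stood at 225, 194 and 209.6 in CD25 neurons, 308, 244 and 333 in AcP, 241, 284 and 256 in AcPb and 229.5, 256 and 274 in AcP+AcPb neurons. In IL-1b arrays, Cacna1g stood at 189, 228 and 224 in CD25 neurons, 259.8, 254 and 253 in AcP, 208, 237 and 218 in AcPb and 245, 229 and 198 in AcP+AcPb neurons. All control arrays of the other arms lay above the CD25 controls. The mean rose from 209 ± 15.3 in CD25 to 295 ± 45.6 in AcP controls (SD, n = 3 each), a difference of 0.46 ± 0.10 (adjusted p = 0.0059). It was 0.29 ± 0.10 in AcPb and 0.25 ± 0.10 in AcP+AcPb controls (adjusted p = 0.1 and 0.095). The AcP arrays with IL-1b also lay above those of CD25, at 0.25 ± 0.10 (adjusted p = 0.15), not called. With only the arrays compared in the fit, the call in AcP controls was lost. Cacna1h, the other T-type gene, lay between 241 and 357 units, with differences from CD25 controls of 0.14, 0.14 and 0.14, none called.

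Of the 4 alpha2delta genes, Cacna2d2 was called higher in all 3 receptor arms before IL-1b, and Cacna2d4 lower in 1. Alpha2delta subunits are the targets of gabapentin in the case of Cacna2d1 and Cacna2d2. Without IL-1b, Cacna2d2 gave 384, 311 and 316 in CD25 neurons, 610.0, 371 and 489 in AcP, 500.3, 482 and 489.5 in AcPb and 496, 440.4 and 465 in AcP+AcPb neurons. After IL-1b, Cacna2d2 gave 383, 425 and 369 in CD25 neurons, 449, 433 and 529 in AcP, 438, 414 and 438 in AcPb and 428, 431 and 432 in AcP+AcPb neurons. Every AcPb and AcP+AcPb control lay above every CD25 control, while 1 AcP control lay among them. The difference from CD25 was 0.50 ± 0.12 in AcP, 0.53 ± 0.12 in AcPb and 0.46 ± 0.12 in AcP+AcPb controls (adjusted p = 0.0097, 0.012 and 0.015). With IL-1b it was 0.25, 0.13 and 0.13, none called. The CD25 mean was 337 ± 41.2 in controls and 393 ± 29.3 with IL-1b (SD, n = 3 each), a change of 0.22 ± 0.12 that was not called (adjusted p = 0.86). The calls rest in part on CD25 controls 2 and 3: leaving out either ended the calls in AcPb and in AcP+AcPb controls. Leaving out AcP control 1 ended the call in AcP controls, and AcP+AcPb control 1 that in AcP+AcPb controls. The AcP call was also lost with only the arrays compared, and the AcP+AcPb call with array medians centred. With the mean of probe sets, the AcPb and AcP+AcPb calls were lost.

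Cacna2d4 was dim. Control arrays of Cacna2d4 read 56.8, 67.2 and 65.9 in CD25 neurons, 70.4, 37.5 and 50.9 in AcP, 105, 70.2 and 48.8 in AcPb and 10.2, 35.2 and 24.01 in AcP+AcPb neurons. With IL-1b, Cacna2d4 read 62.9, 67.8 and 71.2 in CD25 neurons, 70.0, 35.9 and 56.9 in AcP, 89.3, 77.7 and 59.8 in AcPb and 46.9, 28.3 and 48.8 in AcP+AcPb neurons. The AcP+AcPb controls lay below all CD25 controls, at 23.1 ± 12.5 against 63.3 ± 5.67 units (SD, n = 3 each), a difference of -1.07 ± 0.26 (adjusted p = 0.0071). At such intensities the log2 difference depends on the added 16. With IL-1b the AcP+AcPb arrays again lay below those of CD25, at -0.56 ± 0.26, not called (adjusted p = 0.17). Cacna2d1, the widely expressed member, was bright in every group. In control arrays, Cacna2d1 stood at 2112, 2296 and 2370.3 in CD25 neurons, 2441, 1933 and 2439 in AcP, 2289, 2193 and 2005 in AcPb and 2374, 2367 and 2344 in AcP+AcPb neurons. In IL-1b arrays, Cacna2d1 stood at 2130.3, 2018 and 2409.5 in CD25 neurons, 2288, 2374 and 2424 in AcP, 1986, 1994 and 1981 in AcPb and 2172, 2228 and 2116 in AcP+AcPb neurons. In AcPb and AcP+AcPb neurons the IL-1b arrays lay just below the controls with no overlap, at -0.12 ± 0.08 and -0.12 ± 0.08, neither called (adjusted p = 0.61 and 0.61). Cacna2d3, also a brain subunit, lay between 933 and 1199 units, and its changes with IL-1b between -0.10 and 0.03.

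Of the 3 calcium channel beta genes, which encode the intracellular subunits that bring the pore to the membrane, 1 was called higher and 1 lower against CD25 controls. Without IL-1b, Cacnb1 gave 412, 423 and 451 in CD25 neurons, 591, 439 and 570.3 in AcP, 453, 464 and 455 in AcPb and 543, 512 and 512 in AcP+AcPb neurons. After IL-1b, Cacnb1 gave 461, 367 and 459 in CD25 neurons, 513, 559 and 465 in AcP, 397, 375 and 427 in AcPb and 469, 472 and 476 in AcP+AcPb neurons. Cacnb1 was called in AcP controls, at 0.29 ± 0.10 (adjusted p = 0.049), although 1 AcP control lay within the range of CD25. In AcP+AcPb controls every array lay above CD25, at 0.28 ± 0.10, not called (adjusted p = 0.058). Both further Cacnb1 probe sets bright enough to test were called there when tested singly, at 0.261 ± 0.067 and 0.459 ± 0.136 (adjusted p = 0.013 and 0.029). The second of them was also called higher than in CD25 among the IL-1b arrays, at 0.45 in AcP and 0.589 in AcP+AcPb (adjusted p = 0.045 and 0.0091). The AcP call lay at the threshold and was lost in 13 of 20 alternatives, among them leaving out any 1 of CD25 controls 1, 2 and 3 and AcP controls 1 and 3. Control arrays of Cacnb4 read 652, 702 and 675 in CD25 neurons, 629, 521 and 741 in AcP, 523, 535 and 532 in AcPb and 625, 581 and 646 in AcP+AcPb neurons. With IL-1b, Cacnb4 read 637, 508 and 670.2 in CD25 neurons, 654, 654 and 627 in AcP, 523, 489 and 487 in AcPb and 611, 658 and 629.7 in AcP+AcPb neurons. Cacnb4 was called lower in AcPb controls, at -0.34 ± 0.10 (adjusted p = 0.044). All 3 AcPb controls lay below all CD25 controls, and the call was lost when any 1 of these 6 arrays was left out. With IL-1b the AcPb and CD25 arrays overlapped and the difference was -0.26 ± 0.10 (adjusted p = 0.19). Cacnb2, the third gene, lay between 72.9 and 139.8 units and was not called.

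Of the 8 gamma genes, Cacng5 was called, lower than CD25 in every arm and in both states. Most of these genes encode transmembrane AMPA receptor regulatory proteins rather than calcium channel subunits, and Cacng5 is among them. In control arrays, Cacng5 stood at 317, 329 and 317 in CD25 neurons, 222, 256 and 217 in AcP, 194, 192 and 198 in AcPb and 172, 157 and 193 in AcP+AcPb neurons. In IL-1b arrays, Cacng5 stood at 324, 294 and 416 in CD25 neurons, 185, 235 and 194 in AcP, 176, 189 and 214 in AcPb and 185, 195 and 195 in AcP+AcPb neurons. Every CD25 array lay above every array of the other 3 arms. The mean was 321 ± 6.73 in CD25 controls, 231 ± 21.1 in AcP, 195 ± 3.17 in AcPb and 174 ± 18.3 in AcP+AcPb controls (SD, n = 3 each). The differences from CD25 were -0.45 ± 0.11, -0.68 ± 0.11 and -0.83 ± 0.11 (adjusted p = 0.0081, 0.00051 and 4.1e-05). In the IL-1b arrays they were -0.70 ± 0.11, -0.78 ± 0.11 and -0.78 ± 0.11 (adjusted p = 0.00028, 0.00035 and 0.00012). AcP+AcPb controls also lay below AcP controls with no overlap, at -0.38 ± 0.11, not called (adjusted p = 0.15). IL-1b changed it by 0.08, -0.17, -0.02 and 0.13 in CD25, AcP, AcPb and AcP+AcPb neurons, none called.

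The Cacng5 difference was seen on 1 of its 2 probe sets. The further probe set, with a mean of 87.7 over the 24 arrays, gave -0.007, -0.143 and -0.013, each ± 0.309, in AcP, AcPb and AcP+AcPb controls, and 0.174, -0.269 and 0.313 with IL-1b. None of these was called. With the mean of the probe sets in place of the brighter one, Cacng5 was called in none of the 3 control comparisons (adjusted p from 0.087 to 0.39). With only the arrays compared in the fit, the call in AcP controls was lost.

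The other gamma genes were not called. Cacng2 encodes stargazin, which anchors AMPA receptors at synapses. Without IL-1b, Cacng2 gave 797, 679 and 729.9 in CD25 neurons, 1071, 757 and 839 in AcP, 832, 822 and 773 in AcPb and 885, 852 and 823 in AcP+AcPb neurons. After IL-1b, Cacng2 gave 687, 787 and 959.9 in CD25 neurons, 845, 893 and 785 in AcP, 787, 719 and 741 in AcPb and 792, 757 and 752 in AcP+AcPb neurons. The AcP+AcPb arrays with IL-1b lay below their controls, at -0.15 ± 0.11 (adjusted p = 0.65), and the other arms overlapped. In AcP+AcPb neurons the further tested Cacng2 probe set changed more, by -0.43 ± 0.116. It was not called when tested singly (adjusted p = 0.17). Cacng4 encodes another AMPA receptor regulatory protein. Control arrays of Cacng4 read 1196, 1127 and 1180.5 in CD25 neurons, 1359, 1111 and 1181 in AcP, 1372, 1350.5 and 1221 in AcPb and 1123, 1232 and 1075 in AcP+AcPb neurons. With IL-1b, Cacng4 read 1214, 1215 and 1237 in CD25 neurons, 1232, 1316 and 1301 in AcP, 1096, 1065 and 1165 in AcPb and 1249, 1071 and 1016 in AcP+AcPb neurons. In AcPb neurons the IL-1b arrays lay below the controls with no overlap, at -0.24 ± 0.08 (adjusted p = 0.28), and the further probe set gave -0.016. In CD25 neurons the IL-1b arrays lay above the controls, at 0.07 ± 0.08 (adjusted p = 0.91).

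Cacng1, the gamma subunit of skeletal muscle calcium channels, was dim. In control arrays, Cacng1 stood at 33.5, 39.4 and 73.7 in CD25 neurons, 64.6, 121 and 75.8 in AcP, 61.5, 39.5 and 48.0 in AcPb and 54.0, 132 and 52.0 in AcP+AcPb neurons. In IL-1b arrays, Cacng1 stood at 34.9, 54.8 and 67.0 in CD25 neurons, 38.9, 47.8 and 50.5 in AcP, 61.9, 38.8 and 112 in AcPb and 97.8, 33.4 and 110.5 in AcP+AcPb neurons. In AcP neurons the IL-1b arrays lay below the controls, at -0.71 ± 0.38 (adjusted p = 0.62). Cacng6, related to Cacng1, was dim and uneven. Without IL-1b, Cacng6 gave 75.3, 75.7 and 71.9 in CD25 neurons, 46.2, 122 and 63.1 in AcP, 28.7, 87.8 and 28.8 in AcPb and 37.5, 34.2 and 77.7 in AcP+AcPb neurons. After IL-1b, Cacng6 gave 78.5, 93.5 and 81.6 in CD25 neurons, 49.4, 34.3 and 81.1 in AcP, 110.2, 26.5 and 108 in AcPb and 62.5, 33.7 and 30.0 in AcP+AcPb neurons. The CD25 arrays with IL-1b lay just above their controls, at 0.15 ± 0.42 (adjusted p = 0.97). Cacng3, Cacng7 and Cacng8, AMPA receptor regulatory proteins, lay between 248 and 469, 195 and 433, and 30.5 and 90.7 units. Their changes with IL-1b ran from -0.45, for Cacng7 in AcP neurons, to 0.24, for Cacng7 in CD25 neurons.

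The calls between arms were seldom shared by a gene's other probe sets, and further probe sets of Cacnb1 and Cacna1b were called in comparisons where the one used was not. Of the 16 called pairs of a gene and an arm in controls, 10 had a further probe set that was bright enough to test. In 0 of the 10 were all further probe sets called with the same sign, in 1, Cacnb1 in AcP, some were, and 1, Cacna1b in AcP, had a further probe set of opposite sign. For Cacnb1 the called one gave 0.252 ± 0.067 (adjusted p = 0.018). For Cacna1b in AcP controls the further probe sets gave 0.146 ± 0.062, 0.181 ± 0.097 and -0.023 ± 0.195. For Scn3b in AcP controls the further probe set gave 0.164 ± 0.292. For Scn2b in AcP controls they gave 0.024 ± 0.267 and 0.379 ± 0.421. For Scn3b and Scn2b these standard errors exceed the differences on the probe sets used. For Cacnb4 in AcPb controls they gave -0.307 ± 0.099 and -0.107 ± 0.074. Of the 6 pairs called with IL-1b, all 6 had a tested further probe set, none was called with the same sign, and 2 had one of opposite sign. Cacna1g and Cacna1f have 1 probe set each, and the further ones of Cacna2d2 and Cacna2d4 were too dim to test.

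**Figure D4:**
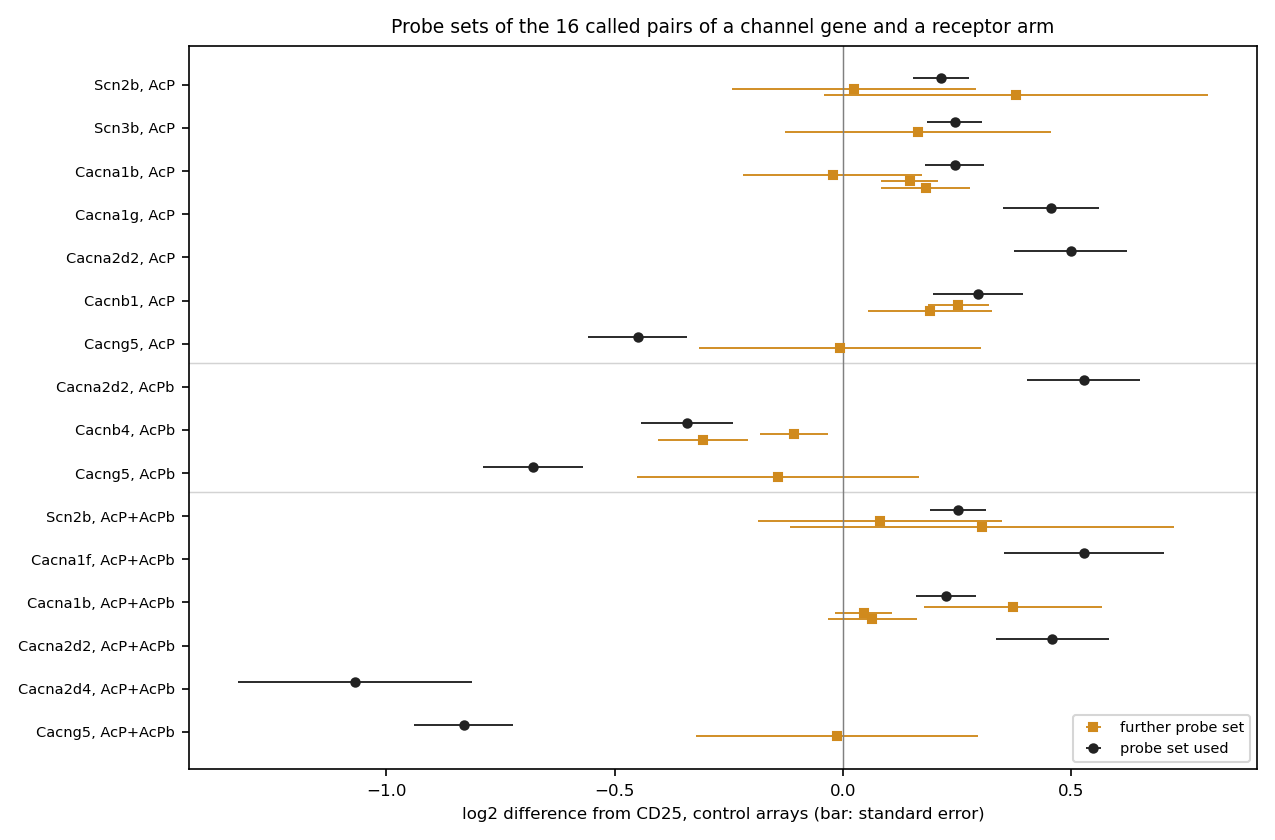
The log2 difference from CD25 controls on each tested probe set, for the 16 pairs of a channel gene and a receptor arm called in control arrays; black circles are the probe set used, orange squares the further ones, and bars standard errors. The further probe set of Cacng5 lies near 0 in all 3 arms, at -0.007, -0.143 and -0.013.

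The responses were also compared between arms. AcP and CD25 neurons differed in the IL-1b response of 0 of 32 channel genes, where 0.246% of all genes were called. At an unadjusted p under 0.05 only Cacng7 passed, where 9.07% of all genes did, with a difference of -0.69 ± 0.32 (adjusted p = 0.52). AcPb and CD25 neurons differed in 0 of 32, where 0.0211% of all genes were called. There 4 channel genes passed an unadjusted p under 0.05, Cacna1b, Cacna1c, Cacna2d2 and Cacng4, where 11.2% of all genes did. Their differences were -0.22, -0.33, -0.40 and -0.31, with adjusted p from 0.36 to 0.41. AcP+AcPb and AcP neurons differed in 0 of 32, where 0.00703% of all genes were called, and Scn1a alone passed an unadjusted p under 0.05, where 5.30% did. Its difference was 0.62 ± 0.25 (adjusted p = 0.9).

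A list of 40 genes whose products bind or regulate these channels was read beside them, of which 36 were on the array and 35 were tested. After IL-1b, 0, 0, 0 and 1 of the 35 were called in CD25, AcP, AcPb and AcP+AcPb neurons, where 0%, 0.542%, 0.00703% and 0.457% of all genes were. At an unadjusted p under 0.05 the counts were 2, 4, 8 and 6 of 35, where 6.04%, 8.79%, 11.0% and 11.1% of all genes passed. The one was Camk2g, a subunit of the calcium- and calmodulin-dependent kinase CaMKII, which fell by 0.30 ± 0.06 in AcP+AcPb neurons (adjusted p = 0.029), from 1896 ± 55.2 to 1539.7 ± 23.4 units (SD, n = 3 each). Against CD25 controls, 16 of 35 were called in AcP, 14 higher and 2 lower, where 15.5% of all genes were called, 6.86% higher and 8.68% lower. In AcPb controls 6 were called, 3 higher and 3 lower, where 7.62% of all genes were, and in AcP+AcPb controls 12, 9 higher and 3 lower, where 18.7% were. These gaps from all genes were not tested. Between AcP+AcPb and AcP controls 0 were called, and 6 passed an unadjusted p under 0.05. Their median difference from CD25 was 0.192, 0.021 and 0.139, beside 0.013, 0.001 and -0.018 over all genes.

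The largest of these differences were falls. Ahnak, a scaffold bound by calcium channel beta subunits, differed from CD25 controls by -2.44 ± 0.27 in AcP, -2.06 ± 0.27 in AcPb and -1.77 ± 0.27 in AcP+AcPb controls (adjusted p = 6.2e-06, 7.6e-05 and 0.00018). Gem, a small GTPase that binds the beta subunits and blocks the current, differed by -1.05, -0.64 and -0.87 in the same order, and its means of 26.0 to 70.7 units were dim. Fgf11, a relative of the factors that bind the sodium channel tail, was higher, by 0.48, 0.44 and 0.58. Cabp1, a calmodulin-like regulator of calcium channels, was higher by 0.49 in AcP and 0.55 in AcP+AcPb controls. Nedd4l, a ubiquitin ligase that removes sodium channels from the surface, was higher by 0.26, 0.22 and 0.31 in AcP, AcPb and AcP+AcPb controls (adjusted p = 0.013, 0.047 and 0.0031). In the IL-1b arrays 12, 3 and 12 of the 35 were called in AcP, AcPb and AcP+AcPb neurons, where 11.5%, 3.62% and 12.8% of all genes were, and Ahnak was called lower in each, at -1.57, -1.40 and -1.24.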

How the data were processed

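RNA of 24 samples was profiled on one-colour Affymetrix Mouse 430 2.0 arrays, and the groups were taken from the labels. The authors deposited linear probe set intensity values, from -1617.3 to 13068.67, with the summary method and scaling not given in the sources used here. Per the labels, RNA came off RNeasy columns and carried biotin after Eberwine amplification. Of 45077 probe sets, 40 controls were left out, and 34945 of the other 45037 had 1 gene symbol in the probe table supplied, 932 several and 9160 none. Entrez IDs matched 34741 to RefSeq names, which changed 0 symbols.

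Values below 0 were set to 0 and log2 of the value plus 16 was taken, which understates changes of dim genes. The percentile of the dim-gene filter was taken over all probe sets that are not controls. limma (version 3.58.1, R 4.3.3) was fitted to all 24 arrays with 8 group means, with 16 residual and 1.94 prior degrees of freedom. P-values are two-sided and adjusted by Benjamini-Hochberg over all 14217 genes tested. The method was checked on simulated data with independent noise. The changes planted there were larger than most differences between arms given here, so recovery of smaller ones was not checked. The number of arrays limits the precision. With 3 arrays against 3, the smallest two-sided p of an exact permutation test is 0.1, so single genes were not tested that way. The labels do not tell whether replicates were separate cultures. The p-values set a difference against the spread of replicate arrays within the 8 groups, which may be technical only. No 2 arrays held identical values.

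The channel genes, the list of binding partners and the marker lists were chosen with earlier results of these data known. Values in every array are given for channel genes called in any comparison, for up to 3 per comparison with the largest change among those without overlap between groups, and for those of a fixed set of genes that have a probe set here. Of list genes, called members are named, up to 4 a comparison. The comparison of IL-1b-treated arms was added after seeing the data.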

Additional observations from a re-analysis of the deposited data

How the results depend on the processing

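In none of the 4 IL-1b responses was a channel gene called under any alternative except for AcPb neurons with array weights, where 1, Cacna1c, was called at an adjusted p of 0.042 while the count over all genes went from 1 to 180. The other alternatives were quantile normalization, centred array medians, 64 added before log2, a generalised log, other dim filters and an intensity trend. Further ones were the mean of probe sets, probe sets tested singly, the replicate block, only the arrays compared, and leaving out each array. The 3 response differences and AcP+AcPb minus AcP controls also kept counts of 0. The count of called channel genes in AcP minus CD25 controls, 7, became 3 with array medians centred, 2 with the mean of probe sets, 0 with only the arrays compared and 3 in IL-1b arrays, an alternative added after seeing the data. The count over all genes, 2209, became 1551, 1698, 548 and 1632 in the same order. When 1 array was left out, the channel gene count ranged from 3 to 9 and that of all genes from 1499 to 3241. In AcPb minus CD25 controls the count of 3 became 1 with the mean of probe sets and 1 in IL-1b arrays. The count over all genes, 1083, became 772 and 514. When 1 array was left out, the channel gene count ranged from 1 to 2 and that of all genes from 667 to 768. In AcP+AcPb minus CD25 controls the count of 6 became 3 with array medians centred and 2 in IL-1b arrays. The count over all genes, 2664, became 2226 and 1821. When 1 array was left out, the channel gene count ranged from 3 to 7 and that of all genes from 1587 to 2404. A change of sign was seen in 3 uncalled values: Cacna1e in the AcP response (0.0159) and Scn3b in AcP+AcPb minus AcP controls (0.0033) with the mean of probe sets, and Scn7a in AcPb minus CD25 with IL-1b arrays (-0.0386). The cause of these changes was not tested, and the mean of probe sets takes in those too dim to test. The labels do not say whether replicate numbers pair the samples. Same-numbered control and IL-1b arrays correlated at -0.132 to 0.239 in their deviations, and 5 of 12 correlated best with their own number. These correlations ran from 0.063 to 0.239 in CD25 and from 0.03 to 0.115 in AcPb neurons. They ran from -0.121 to -0.019 in AcP and from -0.132 to 0.036 in AcP+AcPb neurons. With 3 arrays a group such values cannot decide on pairing. With the replicate block the counts over all genes were 71 in the AcP response, 69 in the AcP+AcPb response and 2202 in AcP minus CD25 controls, against 77, 65 and 2209 without it. The array code was also entered as a block, as m22B against the other codes. All CD25, AcP and AcPb arrays are m21B, so it could not shift an estimate in those arms. In the AcP+AcPb response it leaves 1 control array with the code of the IL-1b arrays, so it is no check there. This block was not applied to the 2 unstimulated comparisons of AcP+AcPb. Under the scalings tried, the median of all genes moved by less than 0.1 log2 units. Intensities near background limit what can be read for Scn7a, Scn9a, Scn11a, Cacna2d4, Cacng1, Cacng6 and Cacng8.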
